A study of Mus musculus with 3 samples.

Results

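Cardiac macrophages were sought in single-cell RNA sequencing libraries of mouse hearts as barcodes that carried macrophage transcripts. A barcode was taken when at least 1 UMI (unique molecular identifier, 1 captured transcript) was found in at least 4 of 13 marker genes, C1qa, C1qb, C1qc, Csf1r, Mrc1, Cd163, F13a1, Adgre1, Fcgr1, Pf4, Dock2, Ikzf1 and Pik3ap1. It also had to hold fewer than 3 of 6 endothelial and fibroblast genes, Pecam1, Cdh5, Emcn, Egfl7, Pdgfra and Tcf21. Of 27497 deposited barcodes 310 met the rule. They were 81 of 9510 in the isotype library, 119 of 6388 in the library titled PD1/PEM and 110 of 11599 in the library titled PDL1/ATZ. The members were thus selected on measured UMIs of these 19 genes. They are called macrophage-marker barcodes here, because most of the RNA they held did not set them apart from other barcodes.

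All animals were NOD/SCID mice, a strain without functional T and B lymphocytes that keeps macrophages. They received an immune checkpoint antibody, pembrolizumab (against PD-1) or atezolizumab (against PD-L1), or an isotype control. Injections fell on days 0 and 7 and hearts were collected at day 14. Each group was 1 library of 3 pooled hearts, so no replicate existed, no test was possible, and all intervals are 95% intervals for counting error only. The libraries are called by their titles because title and treatment tag disagree, PD1/PEM being tagged Atezolizumab and PDL1/ATZ Pembrolizumab, and no difference between libraries can be assigned to an antibody by name. Age, sex and dose are not stated in the labels.

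Macrophages of the heart engulf dying cells and debris, and they sense antibody-coated particles through Fc receptors. Resident cardiac macrophages are seeded before birth, renew themselves locally, and in mice are commonly marked by Lyve1, Timd4 and Folr2 together with scavenger receptors such as Mrc1 and Cd163. Recruited macrophages derive from circulating monocytes, which enter through the chemokine receptor Ccr2 and carry Ly6c2 and Plac8 when they arrive.

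The sequences just upstream of the transcription start of 4 of the markers are shown because these genes chose the barcodes. They are the 4 markers with a RefSeq promoter entry that were found in the most marker barcodes, 258 of 310 for F13a1, 226 for Mrc1, 134 for C1qc and 119 for C1qb. Capitals mark GAGGAA or its reverse complement TTCCTC, letters that occur in binding sites of PU.1, the myeloid transcription factor encoded by Spi1. Sequences are from RefSeq on GRCm38.p6, given 5′ to 3′ on the strand of the gene, without bases that GENCODE M21 places inside the gene.
F13a1, chr13:37050245-37050494, minus strand: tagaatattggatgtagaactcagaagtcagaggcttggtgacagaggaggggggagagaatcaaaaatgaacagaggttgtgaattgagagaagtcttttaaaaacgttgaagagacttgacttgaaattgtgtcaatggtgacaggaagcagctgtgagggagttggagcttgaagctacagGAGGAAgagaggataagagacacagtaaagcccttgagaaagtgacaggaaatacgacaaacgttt
Mrc1, chr2:14229164-14229391, plus strand: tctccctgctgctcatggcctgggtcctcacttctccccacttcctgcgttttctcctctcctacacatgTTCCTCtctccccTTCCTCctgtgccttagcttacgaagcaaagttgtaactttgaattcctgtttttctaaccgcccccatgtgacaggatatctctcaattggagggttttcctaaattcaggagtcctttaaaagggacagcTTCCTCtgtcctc
C1qc, chr4:136893066-136893164, minus strand: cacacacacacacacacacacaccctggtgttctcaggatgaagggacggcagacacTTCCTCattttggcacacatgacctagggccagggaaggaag
C1qb, chr4:136886201-136886450, minus strand: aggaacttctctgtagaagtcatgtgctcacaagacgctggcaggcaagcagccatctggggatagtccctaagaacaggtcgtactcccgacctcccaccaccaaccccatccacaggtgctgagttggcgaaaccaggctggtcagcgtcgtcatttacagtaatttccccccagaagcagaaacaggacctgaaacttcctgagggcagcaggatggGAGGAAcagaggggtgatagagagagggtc

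Mrc1 held 3 matches and F13a1, C1qc and C1qb held 1 each. Of the 13 markers, 10 matched an entry by symbol, and 8 of these held a match on either strand within 250 bases upstream of the start. Over all 32851 windows of that length 23.3% held one. A marker counted if any of its entries held a match, so the count of genes and the share of single windows are unlike measures. A match describes letters only and does not show binding. The genes lie at chr4:136880129-136886187 (C1qb), chr4:136889804-136893065 (C1qc) and chr4:136895917-136898803 (C1qa), next to each other on the minus strand, while Mrc1 is at chr2:14229392-14332057 and F13a1 at chr13:36867178-37050244.

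Marker barcodes were 0.852% of the isotype library (95% exact Clopper-Pearson interval 0.677 to 1.06), 1.86% of PD1/PEM (1.55 to 2.23) and 0.948% of PDL1/ATZ (0.780 to 1.14). They were deeper than the rest, with a median of 2560, 3128 and 1918 UMIs in the isotype, PD1/PEM and PDL1/ATZ libraries against 1527, 1992 and 1006 in all other barcodes. From the lowest to the highest quartile of UMIs the share went from 0 to 2.35% in isotype, from 0.313% to 3.82% in PD1/PEM and from 0.0691% to 2.58% in PDL1/ATZ. After every barcode was thinned to 700 UMIs, 3 of 9027 isotype barcodes (0.0332%, 0.00685 to 0.0971), 6 of 6255 PD1/PEM barcodes (0.0959%, 0.0352 to 0.209) and 35 of 11186 PDL1/ATZ barcodes (0.313%, 0.218 to 0.435) met the rule, leaving out 483, 133 and 413 shallower barcodes. PD1/PEM was thus highest as deposited and PDL1/ATZ at 700 total UMIs. Mitochondrial UMIs took a larger part in isotype and PD1/PEM than in PDL1/ATZ, and whether this bears on the order was not tested.

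**Figure D1:**
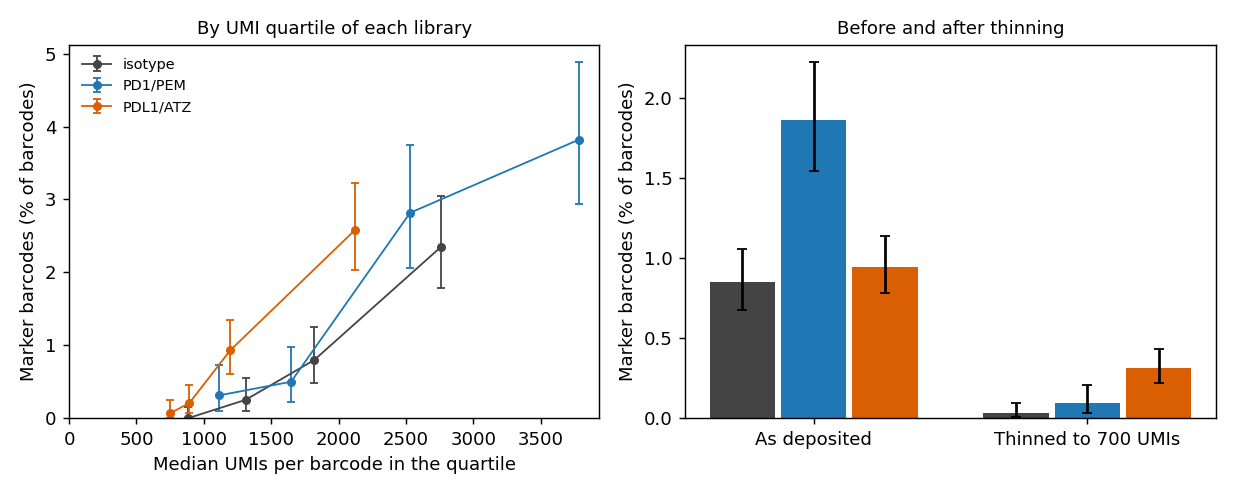
Share of barcodes that met the macrophage-marker rule (y axes, % of barcodes; whiskers are 95% Clopper-Pearson intervals) by median UMIs of each quartile of a library (left) and before and after thinning to 700 UMIs (right). Isotype is dark grey, PD1/PEM blue and PDL1/ATZ orange; the share was higher in deeper quartiles, and PD1/PEM was highest as deposited (1.86%) and PDL1/ATZ after thinning (0.313%).

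At the edge of the rule, 45 isotype, 74 PD1/PEM and 44 PDL1/ATZ barcodes held exactly 4 markers, and 192, 210 and 182 held 3 with fewer than 3 of the excluding genes. Only 14, 16 and 36 held 6 or more. A further 20, 79 and 87 barcodes had enough markers but also 3 or more excluding genes. The median mitochondrial share of UMIs was 26.8% in isotype, 27.1% in PD1/PEM and 6.42% in PDL1/ATZ marker barcodes, close to 27.1%, 26.9% and 8.06% in other barcodes. A simulated-doublet score marked 13 (16%), 6 (5.04%) and 26 (23.6%) of the marker barcodes, against 7.61%, 5.10% and 9.28% of all barcodes, and they were kept. The isotype and PD1/PEM libraries shared 23 barcode sequences, none of them marker barcodes, and PDL1/ATZ shared none with either.

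Among the genes that chose the barcodes, F13a1 (the A subunit of coagulation factor XIII) was found in 77.8% of isotype, 82.4% of PD1/PEM and 88.2% of PDL1/ATZ marker barcodes. Mrc1 (the mannose receptor CD206) was found in 75.3%, 74.8% and 69.1%, and C1qa (a chain of complement C1q) in 74.1%, 67.2% and 51.8%. Fcgr1, the high-affinity Fc receptor, was the least detected, with 2, 3 and 8 UMIs. Csf1r, the receptor for the macrophage growth factor CSF1, lay at 152, 111 and 226 CPM (UMIs per 1000000 of the summed barcodes), with 35, 43 and 51 UMIs. In PDL1/ATZ F13a1 alone had 519 UMIs, up to 46 in 1 barcode, against 134 and 227 UMIs in the other libraries. These values follow from the rule and describe the members only.

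Genes that the rule did not use bear on the label. A list of 28 macrophage and leukocyte genes summed to 1432 CPM in isotype marker barcodes against 533 CPM in other barcodes, a ratio of 2.69 (2.40 to 3.00). The ratio was 2.38 (2.19 to 2.58) in PD1/PEM, 1593 against 670 CPM, and 3.87 (3.61 to 4.14) in PDL1/ATZ, 3916 against 1011 CPM. Individually 15 of 28, 18 of 28 and 21 of 28 genes were at least 2-fold higher with an interval above 1, where 2.3%, 1.75% and 3.68% of all tested genes were, and none was 2-fold lower. The median fold over genes expected at 5 or more UMIs was 1.80 (8 genes), 2.48 (15 genes) and 4.35 (13 genes), beside 1.03, 1.02 and 0.991 over all such genes.

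Laptm5, a lysosomal membrane protein of blood cells, had 23, 29 and 24 UMIs and folds of 5.92 (3.69 to 9.07), 3.08 (2.03 to 4.51) and 6.12 (3.85 to 9.31). Cathepsin S (Ctss) lay 5.26-fold, 2.40-fold and 7.44-fold higher and Ptprc (CD45, on all leukocytes) 4.42-fold, 2.27-fold and 4.68-fold. Cd68, a macrophage lysosomal glycoprotein, was 3.94-fold, 2.93-fold and 5.37-fold higher. Spi1, which encodes PU.1, had 4, 5 and 19 UMIs, 4.15-fold (1.10 to 11.1), 2.72-fold (0.856 to 6.67) and 8.42-fold (4.93 to 13.6). Not every gene followed. Cx3cr1, the fractalkine receptor, was at 0.481, 1.74 and 1.34 of other barcodes.

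**Figure D2:**
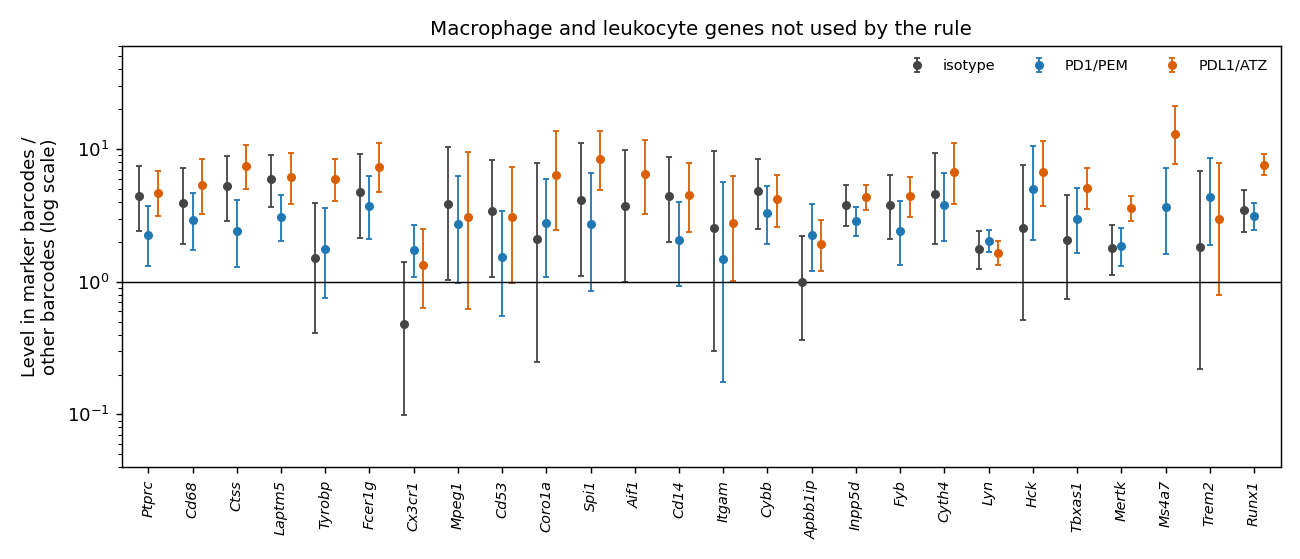
Ratio of the level in marker barcodes to that in other barcodes of the same library (y axis, log scale) for 26 of the 28 macrophage and leukocyte genes that the rule did not use, with 95% intervals for counting error; genes with 0 UMIs in a library have no point there. Most points lie above the line at 1, such as Laptm5 at 5.92, 3.08 and 6.12, while Cx3cr1 (0.481, 1.74 and 1.34) lies on both sides of it.

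The level of these genes stepped up with the number of markers. From 0 markers to 6 or more it went from 512 to 2271 CPM in isotype, from 620 to 3041 CPM in PD1/PEM and from 911 to 4922 CPM in PDL1/ATZ, and barcodes at exactly 4 markers lay at 1072, 1113 and 2764 CPM. Heart muscle transcripts, which were found in marker and other barcodes alike, were lower at 6 or more markers than at 0, yet still 28233, 20296 and 10928 CPM. The summed level of 11 such genes, among them Myh6, Tnnt2 and Ttn, was 0.876, 0.957 and 0.745 of that in other barcodes. Levels of 7 fibroblast genes were at 0.936, 0.997 and 0.678 of other barcodes and those of 6 endothelial genes at 0.915, 0.930 and 0.773. Over 1600 genes with at least 20 UMIs in the marker barcodes of each library, 1468, 1540 and 1391 lay within 1.5-fold of other barcodes. The marker barcodes thus held macrophage transcripts on top of a profile near that of the other barcodes, and how much of it was free RNA or a second cell was not tested.

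**Figure D3:**
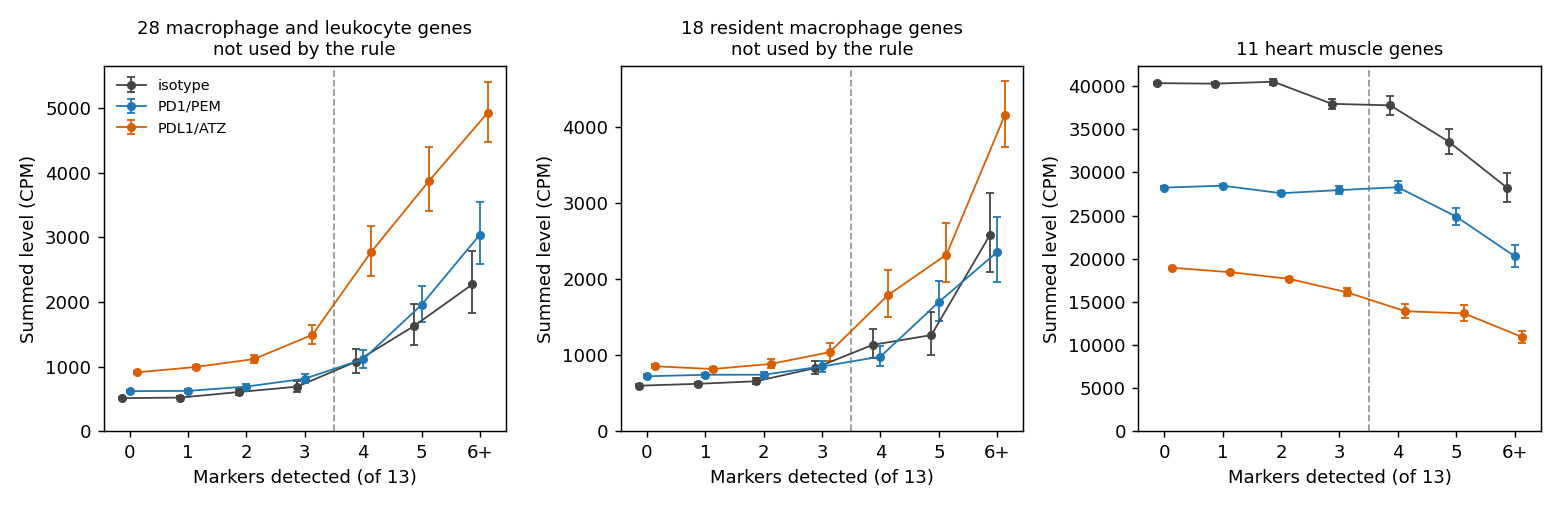
Summed level (CPM, y axes) of 28 macrophage and leukocyte genes, 18 resident macrophage genes and 11 heart muscle genes by how many of the 13 markers a barcode held (x axes), among barcodes with fewer than 3 excluding genes; points are libraries with 95% Poisson intervals, and the dashed line marks the rule. Macrophage genes were highest at 6 or more markers (2271 CPM in isotype, 3041 in PD1/PEM and 4922 in PDL1/ATZ) while heart muscle genes were lower there (28233, 20296 and 10928 CPM).

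The markers were then compared pair by pair. Among barcodes thinned to 700 UMIs, Mrc1 was found in 8.04% of isotype barcodes with F13a1 and in 6.04% of those without. The shares were 11% and 8.51% in PD1/PEM and 10.4% and 6.29% in PDL1/ATZ. C1qb was found in 2.81%, 4.03% and 4.85% of barcodes with C1qa, against 1.71%, 2.10% and 2.72% without. C1qa was found in 7.14%, 6.55% and 6.99% of barcodes with F13a1, against 4.15%, 4.60% and 4.53% without. C1qc was found in 3.84%, 2.35% and 2.99% of barcodes with C1qa, against 2.22%, 2.30% and 2.30% without. The 95% intervals with and without the first gene were apart for F13a1 and C1qa in isotype and PDL1/ATZ, and for the pairs F13a1 with Mrc1 and C1qa with C1qb in PDL1/ATZ, and overlapped in the other cases. The fibroblast gene Dcn served as a comparison, and its share was 48.8%, 55.8% and 46.6% with F13a1 and 48.1%, 55.1% and 47.9% without.

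Without regard to any list, 15 genes were at least 2-fold higher beyond counting error in the marker barcodes of all 3 libraries, among the 1600 genes above. Slc9a9, an endosomal sodium-proton exchanger, led with folds of 4.37 (3.31 to 5.68), 3.79 (3.13 to 4.56) and 8.04 (7.10 to 9.08). Cacna1a, a calcium channel subunit best known from neurons, followed with 3.92, 3.64 and 7.94. Runx1, a transcription factor of blood cells, was 3.47-fold, 3.11-fold and 7.63-fold higher, and Inpp5d, the lipid phosphatase SHIP1 of blood cells, 3.82-fold, 2.88-fold and 4.33-fold. Rbpj, the transcription factor of Notch signalling, was 4.16-fold, 2.36-fold and 8.93-fold higher. Also among the 15 were Lyz2, Laptm5, Plek, Sirpa, Dab2, Maf, Gas7, Zdhhc14 and Arhgap15, with lowest folds of 2.12 (Arhgap15) to 3.53 (Lyz2).

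Markers of other leukocytes were few. The 6 neutrophil genes had 2, 16 and 5 UMIs in all, with Ly6g at 0 in the marker barcodes of the 3 libraries, and summed to 8.70, 41.2 and 22.1 CPM against 10.5, 18.9 and 12.7 CPM in other barcodes. Their sum stood above other barcodes beyond counting error in PD1/PEM alone (ratio 2.18, 1.23 to 3.60), and its part in the results was not tested. The 8 T and natural killer cell genes had 4, 7 and 6 UMIs, with Nkg7 and Ncr1 at 0, and lay between 0.820 and 1.01 of other barcodes. For 5 mast cell genes 6, 6 and 5 UMIs were found. Of the dendritic list Xcr1 was at 0 and most UMIs were of Zbtb46 (23, 12 and 34), at or below its level in other barcodes. The B cell list was an exception in PDL1/ATZ through 1 gene: Bank1, a B cell scaffold protein, had 52 UMIs in 35 of 110 marker barcodes, 8.63-fold above other barcodes, while Cd79a, Cd79b and Ms4a1 had 1 UMI each and Pax5 had 0.

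Resident macrophage genes were above background in the marker barcodes of each library. The rule bears on this, because its markers Mrc1, Cd163, F13a1 and Pf4 were counted as resident genes here and none of its markers is on the recruited list. The contrast of resident and recruited genes thus describes barcodes selected in part on genes counted as resident. The 18 resident genes outside the rule summed to 1419 CPM in isotype (625 in other barcodes, ratio 2.27, 2.03 to 2.54), 1354 in PD1/PEM (750, ratio 1.80, 1.65 to 1.97) and 2863 in PDL1/ATZ (841, ratio 3.41, 3.14 to 3.69). Of the genes measured, with at least 20 UMIs in a library, 8 of 16, 5 of 15 and 16 of 18 were at least 2-fold higher beyond counting error. None was called 2-fold lower, but those expected at few UMIs in marker barcodes could hardly be called lower. Over all tested genes 2.3%, 1.75% and 3.68% were higher and 0.496%, 0.713% and 0.984% lower. The median fold over those expected at 5 or more UMIs was 2.74 (7 genes), 1.96 (8 genes) and 2.72 (7 genes). At least 3 resident genes were found in 53.1%, 52.1% and 59.1% of marker barcodes, against 7.50%, 16.4% and 7.08% of the shallower other barcodes.

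Lyve1, a hyaluronan receptor of resident macrophages that lymphatic endothelium also carries, had 31, 42 and 13 UMIs in isotype, PD1/PEM and PDL1/ATZ. It was found in 22 of 81 (27.2%), 30 of 119 (25.2%) and 13 of 110 (11.8%) marker barcodes, against 7.49%, 8.33% and 3.29% of other barcodes, and its level was 2.93-fold (1.97 to 4.19), 2.69-fold (1.92 to 3.68) and 2.03-fold (1.07 to 3.51) higher. At 700 UMIs the shares were 6.17%, 6.72% and 7.34%, against 3.28%, 2.97% and 1.93%. The level was thus above background in the 3 libraries, and in CPM it was lowest in PDL1/ATZ.

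Timd4, the phosphatidylserine receptor TIM-4, was found in 7 (8.64%), 1 (0.840%) and 6 (5.45%) marker barcodes, against 0.498%, 0.686% and 0.888% of the others. Its 7 UMIs in isotype and 7 in PDL1/ATZ were 10.7-fold (4.07 to 23.7) and 4.40-fold (1.73 to 9.39) above background, and the 1 UMI in PD1/PEM was at background (ratio 0.861, 0.0213 to 5.06). Folr2, folate receptor beta, had 5, 5 and 32 UMIs, with folds of 3.25 (1.04 to 7.83), 1.93 (0.612 to 4.66) and 12.1 (8.01 to 17.7), and was found in 6.17%, 3.36% and 17.3% of marker barcodes. Vsig4, a complement receptor of resident macrophages, had 10, 4 and 19 UMIs, with folds of 11 (5.04 to 21.6), 1.78 (0.475 to 4.74) and 8.25 (4.83 to 13.3). These 3 genes were above background beyond counting error in isotype and PDL1/ATZ but not in PD1/PEM. The difference between libraries was not tested.

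Some resident genes with more counts, such as Maf and Stab1, were above background in each library. Maf, a transcription factor of tissue macrophages, had 45, 80 and 102 UMIs and folds of 2.71 (1.97 to 3.65), 2.41 (1.90 to 3.02) and 4.92 (3.99 to 6.02). Stab1, the scavenger receptor stabilin-1, had 49, 58 and 103 UMIs and folds of 2.82, 1.80 and 4.19. Selenop, the secreted selenium carrier, lay at 1.94, 1.62 and 2.71 of other barcodes. Cbr2, a carbonyl reductase, lay at 3.16, 2.41 and 5.93, on only 9 and 14 UMIs in isotype and PD1/PEM. Hpgds, which makes prostaglandin D2, was 7.93-fold higher in PDL1/ATZ with 31 UMIs and had 2 and 8 UMIs in isotype and PD1/PEM. Gas6, the ligand that bridges dying cells to MERTK, was close to background at 1.15 (0.755 to 1.68), 1.34 (1.01 to 1.75) and 1.13 (0.778 to 1.58). Igf1, a growth factor, was at 1.60, 1.32 and 2.24, on only 18 and 27 UMIs in isotype and PD1/PEM.

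Recruited genes were closer to background as single genes than as a sum. The rule used none of them, while it used resident genes. The 19 genes summed to 749, 1001 and 1297 CPM against 589, 806 and 714 CPM in other barcodes, ratios of 1.27 (1.09 to 1.48), 1.24 (1.12 to 1.38) and 1.82 (1.61 to 2.04). At least 2-fold higher beyond counting error were 1 of 12, 1 of 14 and 2 of 15 measured genes, beside 2.3%, 1.75% and 3.68% of all tested genes. Vcan in isotype was the 1 gene past 2-fold lower, where 0.496%, 0.713% and 0.984% of all tested genes were. From 0 markers to 6 or more the sum went from 581 to 833 CPM in isotype, from 791 to 1805 in PD1/PEM and from 736 to 1682 in PDL1/ATZ. The median fold over those expected at 5 or more UMIs was 0.959 (7 genes), 0.978 (8 genes) and 1.11 (7 genes), near the 1.03, 1.02 and 0.991 of all genes. The higher gene was Lyz2 in each library, joined in PDL1/ATZ by Chil3, a chitinase-like protein named after its values were seen, on 3 UMIs (fold 7.34, 1.42 to 23.8).

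Lyz2, lysozyme, is also expressed by resident macrophages. It had 70, 144 and 170 UMIs in 44.4%, 45.4% and 60% of marker barcodes and was 4.25-fold (3.29 to 5.41), 3.53-fold (2.96 to 4.2) and 4.57-fold (3.89 to 5.34) above other barcodes. At 700 UMIs it was found in 14.8%, 17.6% and 29.4% of marker barcodes against 5.05%, 7.15% and 11.1% of others.

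Genes of arriving monocytes were scarce. Ccr2 had 2, 1 and 2 UMIs, each in a different barcode, which is 2.47% (0.300 to 8.64), 0.840% (0.0213 to 4.59) and 1.82% (0.221 to 6.41) of marker barcodes and 0.170%, 0.479% and 0.392% of others. The ratios of its levels were 8.95 (0.998 to 38.1), 1.23 (0.0302 to 7.42) and 2.87 (0.338 to 11), so none stood apart from background beyond counting error. Ly6c2 had 0, 2 and 0 UMIs and Plac8 0, 1 and 0. A count of 0 allows up to 3.70% of isotype, 2.52% of PD1/PEM and 2.73% of PDL1/ATZ marker barcodes to carry a UMI of a gene (3 counts of the total). That limit holds for barcodes with a UMI, not for cells that express the gene. Il1b, the inflammatory cytokine, had 1, 1 and 2 UMIs. S100a6 (29, 59 and 45 UMIs) lay at 0.943, 0.986 and 0.902 of other barcodes, and Fn1, fibronectin, at 0.665, 1.0 and 1.13. Thbs1 was at 1.12, 0.785 and 0.723 and Vcan, versican, at 0.492 (0.236 to 0.908), 0.721 and 1.26. Fibroblasts and endothelium also make these matrix genes, so their levels in marker barcodes cannot be told apart from free RNA.

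**Figure D4:**
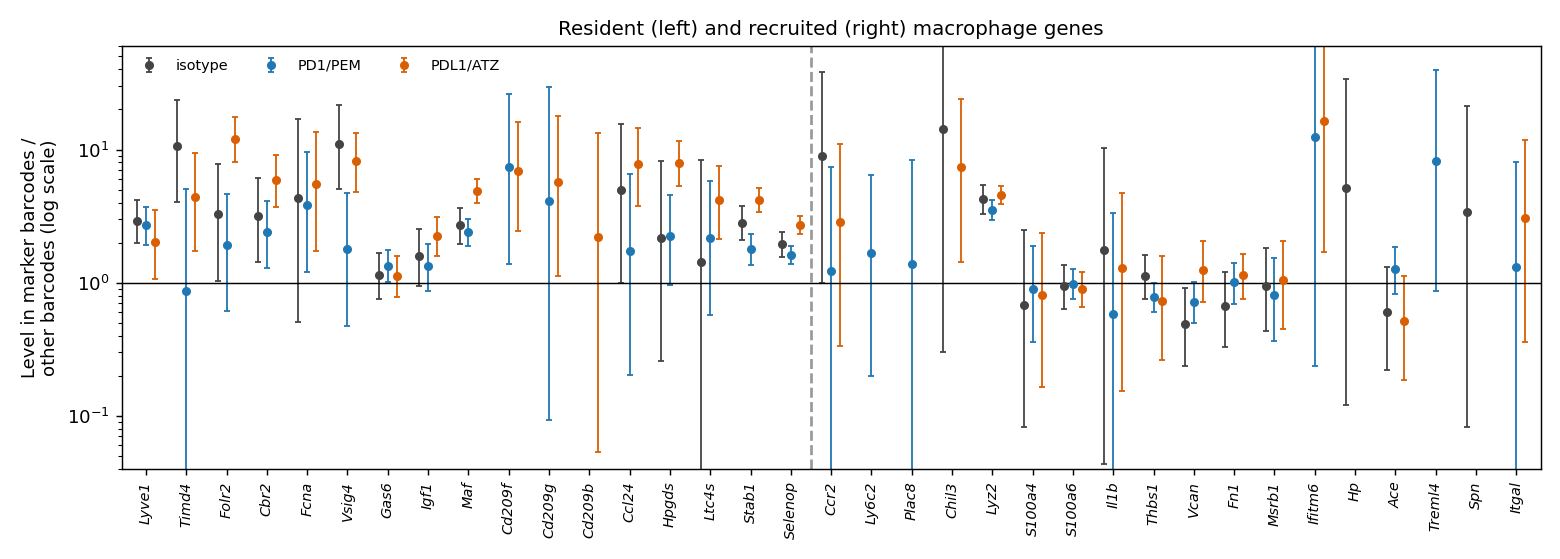
Ratio of the level in marker barcodes to that in other barcodes of the same library (y axis, log scale) for 17 of 18 resident genes (left of the dashed line) and 18 of 19 recruited genes (right), with 95% intervals for counting error; genes with 0 UMIs in a library have no point there. Resident genes such as Maf (2.71, 2.41 and 4.92) and Stab1 (2.82, 1.80 and 4.19) lie above 1. Among the well-counted recruited genes Lyz2 (4.25, 3.53 and 4.57) stands apart from S100a6, Thbs1 and Fn1, which lie nearer 1, and from Vcan, which lies past 2-fold lower in isotype.

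As deposited, most marker barcodes held genes of both lists. At least 1 gene of both lists was found in 81.5%, 84.9% and 76.4% of marker barcodes. Of the shallower other barcodes 39.2%, 62.0% and 36.0% held both. Thinned to 700 UMIs, the shares with both were 22.2%, 27.7% and 34.9% of marker barcodes and 12.5%, 18.4% and 18.2% of others. At 700 UMIs, 38.3%, 37.0% and 39.4% held a resident gene with no recruited gene, and 12.3%, 13.4% and 11.9% the reverse. Other barcodes at that depth had 23.5%, 22.9% and 26.2% with a resident gene alone and 21.6%, 25% and 22.3% with a recruited gene alone. Lyve1, Timd4 or Folr2 was found in 28, 33 and 33 marker barcodes (34.6%, 27.7% and 30%), against 8.94%, 10.2% and 5.62% of others. Of these marker barcodes 6, 2 and 5 held at least 2 of the 3 genes. Of the 5 barcodes with Ccr2, 1 in isotype also held 1 of these 3 genes and none did in PD1/PEM or PDL1/ATZ.

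Antigen presentation genes were above background in each library. The 7 class II genes summed to 422, 198 and 726 CPM, 3.14-fold (2.54 to 3.85), 1.97-fold (1.55 to 2.48) and 3.68-fold (3.12 to 4.3) above other barcodes. Of them 2, 2 and 5 were at least 2-fold higher beyond counting error, where 2.3%, 1.75% and 3.68% of all tested genes were. Cd74, the invariant chain that guides class II molecules, had 60, 34 and 85 UMIs in 33.3%, 20.2% and 29.1% of marker barcodes, with folds of 4.04 (3.06 to 5.25), 1.97 (1.35 to 2.79) and 4.87 (3.86 to 6.08). H2-Eb1, a class II beta chain, was at 3.99, 2.51 and 3.19. A class II gene was found together with Lyve1, Timd4 or Folr2 in 15, 13 and 15 marker barcodes (18.5%, 10.9% and 13.6%), against 2.13%, 2.25% and 1.43% of other barcodes.

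Fc receptor genes were measured at low counts, and binding of the injected antibodies was not measured. The activating Fc receptor Fcgr3 had 6, 10 and 12 UMIs and was 3.18-fold (1.15 to 7.11), 3.25-fold (1.52 to 6.19) and 6.60-fold (3.32 to 12) above background. Its signalling chain Fcer1g had 9, 16 and 26 UMIs, at 4.74, 3.75 and 7.40. The inhibitory receptor Fcgr2b had 10, 4 and 6 UMIs, at 9.42 (4.34 to 18.3), 1.61 (0.429 to 4.26) and 4.55 (1.63 to 10.3). Fcgr4 had no UMI in the marker barcodes of any library. The neonatal Fc receptor Fcgrt, which recycles antibody, was at 1.60, 1.75 and 1.68.

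Pdcd1, which encodes PD-1, had no UMI in marker barcodes, which at this depth does not bound the share of cells that express it. Cd274, which encodes PD-L1, had 2, 5 and 5 UMIs in 2.47%, 4.2% and 4.55% of marker barcodes, against 1.87%, 2.73% and 2.04% of others. Its level was 0.782 (0.0940 to 2.87), 1.07 (0.343 to 2.54) and 1.34 (0.430 to 3.16) of background, so no PD-L1 transcript was detectable in these barcodes beyond background. The costimulatory ligand Cd86 was 4.68-fold (2.45 to 8.18), 1.96-fold (1.15 to 3.14) and 8.05-fold (5.99 to 10.6) higher. Sirpa, the receptor for the signal CD47, was 4.90-fold, 2.56-fold and 4.89-fold higher. Of the checkpoint list 3 of 10, 3 of 10 and 2 of 11 measured genes were called higher, and Lgals9 was called lower in PD1/PEM, where 2.3%, 1.75% and 3.68% of all tested genes were higher and 0.713% lower in PD1/PEM.

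Chemokines and clearance genes were counted by list, beside 2.3%, 1.75% and 3.68% of all tested genes called higher. Of the cytokine and NF-kB genes measured, 4 of 22, 5 of 21 and 10 of 22 were at least 2-fold higher beyond counting error. The 4 in isotype were the chemokines Ccl6, Ccl7, Ccl9 and Cxcl2, and Ccl6 and Ccl9 were called in each library. Ccl9, a chemokine of myeloid cells, was 6.96-fold (3.71 to 12.1), 3.11-fold (1.57 to 5.60) and 15.6-fold (7.82 to 28.9) higher and Ccl6 3.22-fold, 3.62-fold and 7.49-fold, while Nfkbia, the inhibitor of NF-kB, lay at 0.929, 0.900 and 1.02. Of the engulfment genes 3 of 14, 1 of 13 and 4 of 14 were called higher. The scavenger receptor Msr1 was so in all 3 libraries at 3.41, 3.12 and 2.82, and Mertk, the receptor for dying cells, was at 1.79, 1.85 and 3.58. Of 16 lysosome genes 4, 2 and 7 were higher. Of 11 measured complement genes outside the rule 2, 2 and 5 were higher. The anaphylatoxin receptor C3ar1 was among them in each library at 3.41, 2.94 and 5.32, and C5ar1 in PD1/PEM and PDL1/ATZ, at 2.23 (0.885 to 4.66), 5.29 (3.48 to 7.78) and 6.48 (3.98 to 10.1). Pdgfc, a platelet-derived growth factor, was 2.85-fold, 3.18-fold and 4.82-fold higher. Genes of iron and haem handling were called in 1 of 8, 2 of 8 and 6 of 9, with Hmox1, haem oxygenase 1, at 2.22, 1.53 and 5.18.

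Other lists had few calls, beside 2.3%, 1.75% and 3.68% of all tested genes called higher. Immediate early genes had no call among 21, and their summed level lay at 1.02, 1.03 and 1.16 of other barcodes. Type I interferon genes had 1 call of 17, none of 17 and 1 of 17, at 1.14, 1.09 and 1.23. Proliferation genes had 29, 46 and 35 UMIs in all, at 1.24 (0.830 to 1.79), 1.01 (0.733 to 1.35) and 1.26 (0.875 to 1.76), with Cdk1 and Ccnb1 among those at 0 in isotype and PD1/PEM. Haemoglobin genes, which mark red cells, were at 1.09, 1.04 and 1.09, and mural cell genes at 0.975, 0.804 and 0.819.

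The libraries were then set side by side over their marker barcodes, which held 229792 UMIs in isotype, 388493 in PD1/PEM and 225973 in PDL1/ATZ. Of 4765 genes with at least 20 UMIs over both libraries, 126 (2.64%) were at least 2-fold higher and 120 (2.52%) 2-fold lower in PD1/PEM than in isotype with an interval excluding 1. The median log2 ratio of all genes was -0.02. Of these 246 genes 178 had the same direction beyond counting error in the other barcodes of the libraries, and 27 were at least 2-fold apart in that direction there. For 187 the interval overlapped that of the other barcodes. With 1 pool per group, heart, pool, library and treatment cannot be told apart.

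Resident genes in PD1/PEM marker barcodes were close to isotype. The 8 measured genes had a median log2 ratio of -0.16, beside 0.19 in other barcodes. They ran from -0.52 (Stab1) to 0.28 (Gas6), none of them 2-fold apart. Among them Lyve1 lay at 135 CPM in isotype and 108 CPM in PD1/PEM (ratio 0.801, 0.492 to 1.32) and Maf at 196 and 206 CPM (1.05, 0.721 to 1.55). The 6 measured recruited genes, Fn1, Thbs1, S100a6, Lyz2, Ace and Vcan, had a median of 0.63 beside 0.40 in other barcodes. Levels of Fn1, Thbs1 and Vcan in marker barcodes cannot be told apart from free RNA. Only 1, Ace, was 2-fold higher, where 2.64% of all genes were. Ace lay at 26.1 and 69.5 CPM (ratio 2.66, 1.08 to 7.88), from 6 and 27 UMIs, and at 43.4 and 55.1 CPM in other barcodes. Lyz2 lay at 305 and 371 CPM (1.22, 0.908 to 1.64). Among marker barcodes with at most 25% mitochondrial UMIs the recruited median was -0.20, from 3 genes.

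General macrophage genes were also near isotype in PD1/PEM, with a median log2 ratio of 0.03 over 16 measured genes and 0.35 in other barcodes. The 1 past 2-fold was Cx3cr1, at 13.1 and 56.6 CPM (ratio 4.34, 1.30 to 22.6), from 3 UMIs in isotype and 22 in PD1/PEM. In other barcodes it lay at 27.1 and 32.5 CPM, so the isotype marker barcodes were below them. The marker genes Mrc1, Cd163, F13a1 and Pf4 had a median of -0.50 there and 0.41 in other barcodes, which the rule itself bears on.

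Cd74 lay at 261 CPM in isotype and 87.5 CPM in PD1/PEM marker barcodes, 2.98-fold (1.93 to 4.69) lower, against 64.6 and 44.4 CPM in other barcodes, 1.46-fold lower. The 4 measured class II genes were all below isotype, with a median log2 ratio of -0.75 (-0.43 in other barcodes), and Cd74 was the 1 past 2-fold. C5ar1, the receptor for complement C5a, was at 30.5 and 77.2 CPM (ratio 2.53, 1.09 to 6.84) but at 13.7 and 14.6 CPM in other barcodes. The interferon-inducible Ifi27l2a was at 39.2 and 134 CPM (3.42, 1.67 to 7.89), with 39.5 and 72.3 CPM in other barcodes. Pros1, protein S, was at 87.0 and 36.0 CPM, 2.42-fold (1.16 to 5.17) lower, against 56.7 and 61.8 CPM.

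By the naming rule the most separated genes in PD1/PEM mainly had the same direction in other barcodes. Egr1, an immediate early transcription factor, was 2.56-fold (2.17 to 3.02) higher, at 796 and 2036 CPM, and 2.30-fold higher in other barcodes. Btg2, an antiproliferative early gene, was 2.91-fold higher and 2.36-fold in other barcodes. Of the immediate early list 6 of 19 measured genes were at least 2-fold higher, where 2.64% of all genes were. The list had a median log2 ratio of 0.61 beside 0.50 in other barcodes. Atp8b1, a lipid flippase, was 4.73-fold (2.15 to 12.3) higher and 1.81-fold in other barcodes. Parp3, a DNA repair enzyme, had 0 and 20 UMIs, at least 3.94-fold higher with 3 counts set for 0, and 1.06-fold higher in other barcodes. Spty2d1 had 1 and 20 UMIs (ratio 11.8, 1.89 to 490).

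On the lower side, Flnc, the muscle filamin, was 4.95-fold (3.19 to 7.90) lower and 2.76-fold in other barcodes. Bmp10, a secreted factor of atrial muscle, was 5.35-fold (2.06 to 16.4) lower and 9.57-fold in other barcodes. Hk2, a hexokinase, was 3.56-fold and 1.91-fold lower and Pfn1, the actin-binding profilin, 2.71-fold and 1.71-fold. Flnc and Bmp10 are genes of muscle, and in the marker barcodes their level cannot be told apart from free RNA.

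Marker barcodes of PDL1/ATZ differed from isotype at many genes, as other barcodes did. Their level was at least 2-fold above isotype at 827 of 4273 genes (19.4%) and below it at 237 (5.55%), and the median log2 ratio of all genes was 0.40. When mitochondrial and heart muscle UMIs were left out of the scaling, 405 were higher and 441 lower. Of the 1064 genes 1025 had the same direction in other barcodes beyond counting error, and 574 were at least 2-fold apart in that direction there. The matrices differ in their gene symbols: 3533 symbols had UMIs in PDL1/ATZ and none in isotype, 1591 the reverse, and 60 symbols left out for this had 20 or more UMIs in marker barcodes. Large ratios of single genes, and the counts above, cannot be told apart from a difference in annotation. The 10 genes named by rule had the same direction in other barcodes. Rpl13a was 32.8-fold higher (17.1-fold in other barcodes), Cox16 had 3 and 57 UMIs (ratio 19.3, 6.29 to 96.5), and Atp6v0c, Umad1 and Rab43 had 0 UMIs in isotype marker barcodes and 42, 28 and 24 in PDL1/ATZ. Flnc was 26.9-fold (8.88 to 133) lower, Ryr3 18.7-fold, Myo18b 12.8-fold and Kcnk3 8.65-fold, while Ptp4a1 had 22 UMIs in isotype and 0 in PDL1/ATZ. 

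Against that shift, macrophage genes of PDL1/ATZ marker barcodes were higher than in isotype. The 19 measured genes of the 28 had a median log2 ratio of 1.34, beside 0.94 in other barcodes and 0.40 over all genes. Of the 19 genes 13 were at least 2-fold higher, where 19.4% of all genes were. Tyrobp, the signalling adaptor of myeloid receptors, was at 17.4 and 150 CPM (8.64-fold, 3.08 to 33.5) and 2.19-fold higher in other barcodes. Ms4a7, a macrophage membrane protein, had 0 and 21 UMIs, and Spi1 had 4 and 19. Runx1 was 4.19-fold (2.85 to 6.33) higher and 1.91-fold in other barcodes.

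The 11 measured resident genes had a median of 1.08 (0.47 in other barcodes). Of them 6 were at least 2-fold higher and 1 lower, where 19.4% and 5.55% of all genes were. Folr2 lay at 21.8 and 142 CPM, 6.51-fold (2.52 to 21.4) higher, and 1.75-fold in other barcodes. Maf was 2.30-fold (1.61 to 3.35) higher and 1.27-fold in other barcodes, and Stab1 2.14-fold and 1.44-fold. Lyve1 ran the other way, at 135 and 57.5 CPM, 2.34-fold (1.19 to 4.88) lower, and 46.1 and 28.4 CPM in other barcodes. Of the 5 measured recruited genes 2 were higher, Lyz2 (2.47-fold, 2.30-fold in other barcodes) and Fn1, where 19.4% of all genes were. Thbs1 was 4.75-fold lower, and the list median was 0.68 beside 0.60. The iron list had 3 of 4 measured genes higher, where 19.4% of all genes were. Among them was Ftl1, ferritin light chain, 3.71-fold (2.92 to 4.77) higher and 1.96-fold in other barcodes. PDL1/ATZ had 36 of 110 marker barcodes with 6 or more markers against 14 of 81 in isotype, a mitochondrial share of 6.42% against 26.8%, and heart muscle genes with a median log2 ratio of -1.33. The part of these differences in the macrophage genes was not tested. With mitochondrial and heart muscle UMIs left out of the scaling, the resident median was 0.71 and the recruited median 0.30. That scaling lowered the ratio of every gene alike, so calls near 2-fold, such as Maf and Stab1, depended on it.

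**Figure D5:**
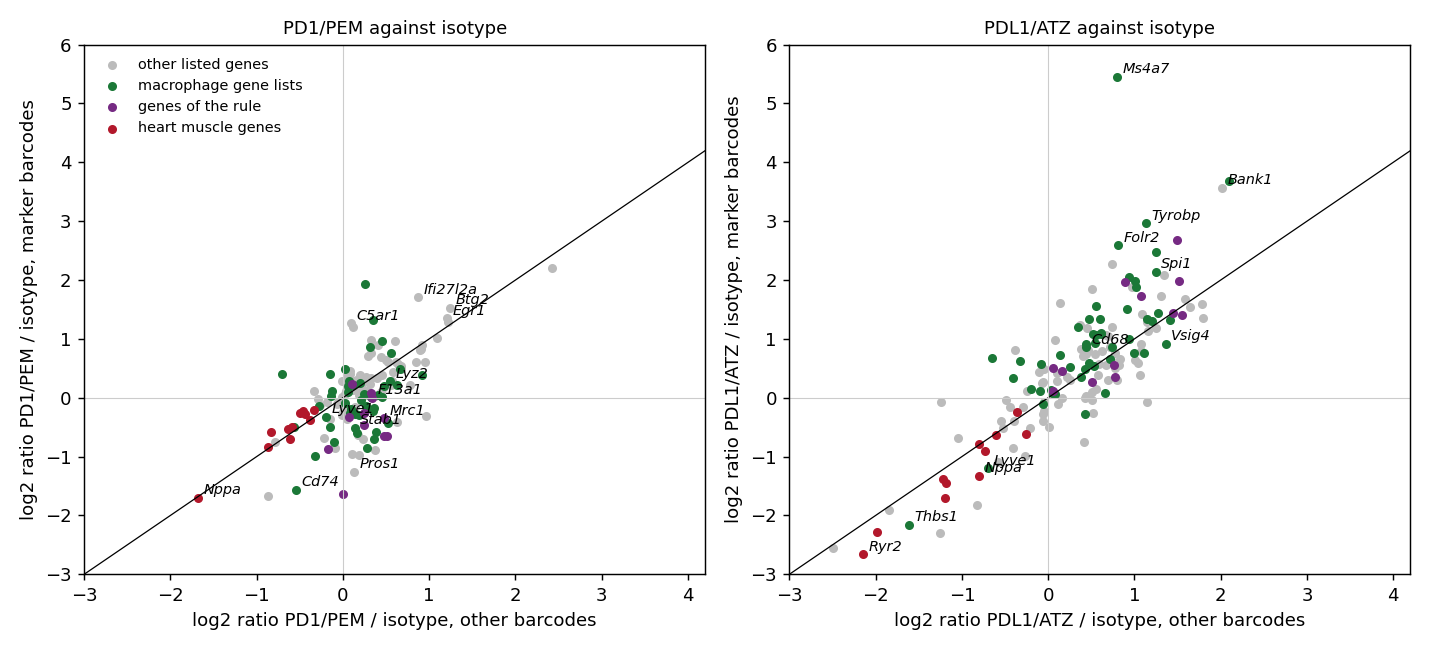
Log2 ratio to isotype in marker barcodes (y axes) against that in other barcodes (x axes), with 0.5 UMI added, for listed genes with at least 20 UMIs over both libraries' marker barcodes; green is macrophage lists, purple the genes of the rule, red heart muscle, grey other lists, and the line marks equal ratios. In PD1/PEM Cd74 and C5ar1 lie off the line and Egr1 and Nppa near it, while in PDL1/ATZ Tyrobp, Folr2 and Ms4a7, which had 0 UMIs in isotype, lie above it and Lyve1 below 0 on both axes.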

How the data were processed

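Each library is 1 deposited matrix of UMI counts per gene and barcode, which are raw whole numbers as deposited. Per the labels' protocols, digested hearts went onto a 10x Genomics 3′ assay. Cell Ranger, Seurat and mm10 appear in the submitters' processing notes, while versions and cell filters are not given there. The deposited barcodes were used without further filtering. Libraries held 16677883 (isotype), 14766346 (PD1/PEM) and 15144668 (PDL1/ATZ) UMIs. UMIs were summed over the barcodes of a set and scaled to CPM. Sums have exact Poisson intervals, shares Clopper-Pearson intervals and ratios conditional binomial intervals. A gene counted as apart at 2-fold with an interval excluding 1 and at least 20 UMIs, and symbols with no UMI in 1 of the libraries compared were left out. Log2 ratios use a pseudocount of 0.5. Doublets were scored against simulated doublets (50 neighbours, expected share rising with the number of barcodes). The 13 markers, 26 gene lists and the rule for named genes (list members with 20 UMIs in all, the 15 genes highest over other barcodes, 5 per direction by the interval bound nearest 1, PD-1, PD-L1 and Fc receptors) were chosen with earlier results of these data known. A few listed genes enter counts and sums and are not reported here singly. Genes named below 20 UMIs were picked for their role. Python 3.11.15, numpy, scipy and pandas were used, and steps were tested on simulated data.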

Additional observations from a re-analysis of the deposited data

How the results depend on the processing

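No paired analysis was possible because each group is 1 library. Share of barcodes (isotype, PD1/PEM, PDL1/ATZ) by rule: 0.379%, 0.704% and 0.569% with 5 markers required, 0.147%, 0.25% and 0.310% with 6, 0.168%, 0.157% and 0.198% with no excluding gene, and 0.0332%, 0.0959% and 0.313% at 700 UMIs. Which library had the highest share thus depended on the rule. Genes higher and lower in PD1/PEM numbered 63 and 70 with 5 markers, 20 and 18 with no excluding gene, 62 and 53 at most 25% mitochondrial UMIs, 31 and 40 at 700 UMIs and 35 and 28 at a minimum of 50 UMIs, and 230 were lower at a minimum of 1. For PDL1/ATZ they were 112 and 66 with no excluding gene, 233 and 104 at 700 UMIs, 405 and 441 scaled without mitochondrial and heart muscle RNA and 359 and 133 at 50 UMIs, while 507 were higher with 5 markers and 505 at most 25% mitochondrial UMIs. Fewer barcodes and genes enter most of these. The recruited median in PD1/PEM was -0.20 at most 25% mitochondrial UMIs (3 genes), and the resident median in PDL1/ATZ was 1.82 with no excluding gene (3 genes). The resident median in PD1/PEM ran from -0.47 with no excluding gene (1 gene) and -0.43 at most 25% mitochondrial UMIs (5 genes) to 0.11 without predicted doublets and 0.19 with 5 markers, so its sign depended on the setting. The ratio of the 28 macrophage genes, in alternatives chosen after seeing the data, was 3.52, 3.47 and 4.44 with 5 markers, 3.5, 1.57 and 5.57 with no excluding gene, 3.07 and 2.02 in isotype and PD1/PEM at most 25% mitochondrial UMIs, and 4.26 in PDL1/ATZ without doublets. Of 100 alternative values 44 moved beyond counting error or 1.5-fold and 56 did not. Depth limits all genes at a few UMIs.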
